A study of Mus musculus with 6 samples.

Results

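Collagen hydroxylases and collagen chaperones are the endoplasmic reticulum proteins that modify and fold collagen chains before secretion, and 8 of their genes are described here: Plod1, Plod2, Plod3, P4ha1, P4ha2, P4ha3, Serpinh1 and Crtap. They were chosen by gene symbol from 18059 genes measured in primary cardiac fibroblasts, the heart cells that make most of its collagen matrix. The cells came from C57BL/6 mice of 1 to 2 weeks of age, were grown in medium with 15% serum, and were exposed for 12 hours to PDGF-DD (3 libraries) or saline (control, 3 libraries). PDGF-DD is platelet-derived growth factor D in its dimer form, and its dose is given in the labels as 20 µM, a unit that is doubtful for a growth factor. According to the protocols all cells of both groups were taken from mice lacking PDGF-D in the whole body, whereas the genotype field calls the PDGF-DD samples PDGF-D -/- and the control samples control. Should that field be correct, treatment and genotype cannot be told apart.

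Lysyl hydroxylases (the Plod genes) hydroxylate lysines of collagen, which are then used for sugar attachment and for the cross-links between collagen molecules. LH2, the product of Plod2, acts on the telopeptides at the chain ends and so directs the stable pyridinoline cross-links of stiff, fibrotic matrix, LH1 (Plod1) acts on the triple-helical part, and LH3 (Plod3) is also a glycosyltransferase. The P4ha genes encode the catalytic alpha subunits of prolyl 4-hydroxylase, which pairs with protein disulfide isomerase (P4hb) and makes the hydroxyproline that keeps the triple helix stable at body temperature. HSP47 (Serpinh1) is a chaperone that binds folded procollagen, and CRTAP forms a complex with the prolyl 3-hydroxylase P3h1 and cyclophilin B (Ppib). These hydroxylases need iron, oxygen, ascorbate and alpha-ketoglutarate.

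Promoter sequences of the lysyl hydroxylase genes Plod3 and Plod1 and of P4ha1 show the letters around their start sites. No promoter sequence was available for Plod2. Plod3, Plod1 and P4ha1 were chosen because Plod3 rose with PDGF-DD, Plod1 is a paralog that did not pass the test, and P4ha1 is the most abundant prolyl hydroxylase gene of the set. Each window holds 250 bases before and 50 after the start site, from RefSeq on build GRCm38.p6 (the submitters' notes name mm9, an older build), 5′ to 3′ on the strand of the gene. Capitals mark matches to ACGTG (the core of hypoxia response elements), CCAAT and GGGCGG (the GC box), on either strand. Plod3 lies on the plus strand at chr5:136986769-136987068, Plod1 on the minus strand at chr4:147936727-147937026 and P4ha1 on the plus strand at chr10:59323046-59323345.
Plod3: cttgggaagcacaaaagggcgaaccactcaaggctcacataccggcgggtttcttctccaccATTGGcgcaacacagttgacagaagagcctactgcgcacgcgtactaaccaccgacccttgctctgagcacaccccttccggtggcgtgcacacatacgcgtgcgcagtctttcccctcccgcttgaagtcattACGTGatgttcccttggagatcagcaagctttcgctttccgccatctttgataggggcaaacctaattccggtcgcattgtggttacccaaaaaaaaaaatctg
Plod1: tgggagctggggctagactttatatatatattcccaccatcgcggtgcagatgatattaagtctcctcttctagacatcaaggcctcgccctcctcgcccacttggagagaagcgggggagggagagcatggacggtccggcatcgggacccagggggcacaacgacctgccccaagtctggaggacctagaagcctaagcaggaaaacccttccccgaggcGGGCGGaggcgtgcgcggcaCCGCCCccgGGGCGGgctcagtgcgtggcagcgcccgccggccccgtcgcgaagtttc
P4ha1: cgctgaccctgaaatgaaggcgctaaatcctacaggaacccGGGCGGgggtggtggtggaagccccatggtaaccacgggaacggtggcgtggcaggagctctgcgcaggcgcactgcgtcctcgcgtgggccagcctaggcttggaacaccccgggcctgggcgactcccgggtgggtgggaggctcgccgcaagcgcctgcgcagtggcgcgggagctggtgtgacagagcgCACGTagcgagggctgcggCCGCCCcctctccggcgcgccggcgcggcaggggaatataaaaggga

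Of the 7 genes with an entry in the promoter table (all but Plod2), 6 held a GC box, against 35.7% of all 32851 windows, and Plod3 was the gene without one. Plod3 instead held the 1 CCAAT match among the 7, a motif present in 37.4% of all windows. ACGTG was found in 4 of the 7 (Plod3, P4ha1, P4ha2 and Serpinh1) and in 19.6% of all windows. The E-box CACGTG, which contains ACGTG, was in none of the 7 and in 7.15% of all windows. The heat shock element pair GAANNTTC was in 1 of the 7 (Plod1) and in 7.86% of all windows, and TATAAA was in 3 of the 7 (Crtap, P4ha1 and Plod1) and in 13.6%. A match is a description of letters and not a bound site. The G and C content of the 7 windows ran between 53.3% in Plod3 and 70.3% in P4ha1 and P4ha2. The set of all 32851 windows was not matched to them in G and C content, on which the frequency of such motifs depends.

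Library totals ran between 21221114 and 21371829 estimated counts, with 15880 to 16026 genes detected. Nothing in the labels says that the 3 libraries of a group are separate cultures or animals, and p-values therefore measure only a spread that may be technical. Control replicate 1 differed most from its group: its counts gave a chi-square of 5.11 and 5.70 per degree of freedom with control replicates 2 and 3, and the other pairs within a group gave 1.90 to 2.74. Reads of Pdgfd, the gene that the labels call deleted, were present in all libraries, with 69, 72 and 82 counts in the PDGF-DD libraries and 118, 114 and 91 in the control libraries (log2 fold change -0.55, SE 0.14, edgeR adjusted p = 0.00245). Whole-gene counts do not show which exons were read and so do not check the deletion. Fibroblast markers were abundant, with a summed level of 18530 to 18841 TPM (a level scaled to transcript length and to the library total) in the PDGF-DD libraries and 20109 to 22055 TPM in the control libraries.

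All 8 genes were expressed, passed the filter on low counts and were tested. Serpinh1 was the 28th gene by mean TPM of the 18059, and the remaining 7 lay between rank 582 (Plod2) and rank 5253 (P4ha3). In the PDGF-DD libraries the order after Serpinh1 (mean 3325 TPM) was Plod3 (281), P4ha1 (267), Crtap (258), Plod2 (227), Plod1 (101), P4ha2 (79.5) and P4ha3 (26.2). In the control libraries it was Serpinh1 (3336), Plod2 (306), P4ha1 (259), Crtap (256), Plod3 (249), Plod1 (102), P4ha2 (77.4) and P4ha3 (27.9). In the control libraries the range of Crtap overlapped those of P4ha1 and Plod3, while every P4ha1 value lay above every Plod3 value. The other neighbours in both orders did not overlap. Plod2 thus had the second highest mean of the 8 in control and the fifth highest with PDGF-DD.

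**Figure D1:**
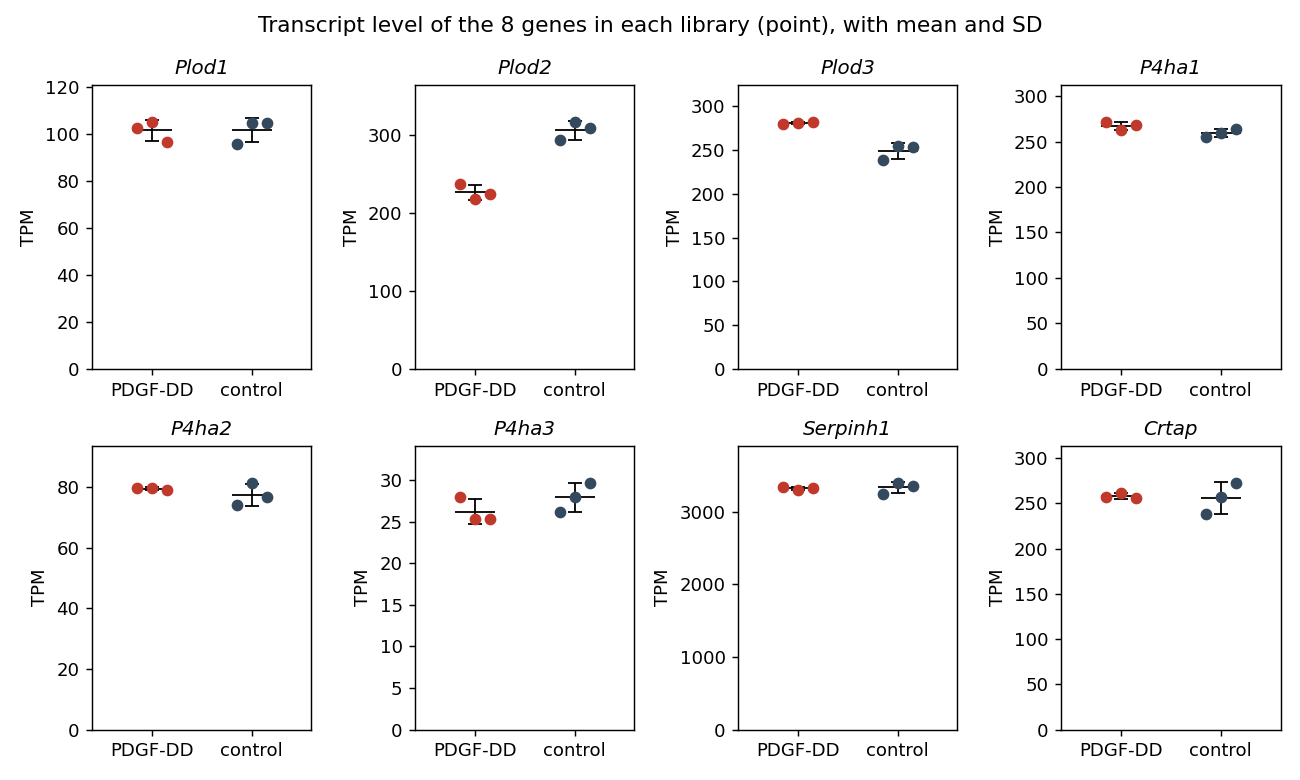
Level of the 8 genes in TPM (vertical axis, from 0, a separate scale for each gene) in the PDGF-DD and control libraries; points are libraries, bars the mean and SD over 3 libraries. The Plod2 points of the PDGF-DD group, 218 to 237 TPM, all lie below those of control, and the Plod3 points, 280.5 to 282 TPM, all lie above.

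Of the 8 genes, 1 rose (Plod3), 1 fell (Plod2) and 6 did not pass at an edgeR adjusted p under 0.05 (quasi-likelihood test, adjusted over all 13270 tested genes). Among all tested genes 19.1% were higher, 17.4% lower and 36.5% called in either direction. The 8 genes are too few to set their share apart from that background. Among the 7168 genes of at least 20 CPM (counts scaled to library size), a level that the 8 genes all reach, 46.6% were called. Their median log2 fold change was 0.02, beside -0.01 over all tested genes. TPM ranges of the groups did not overlap for 2 of the 8, against 43.1% of tested genes.

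Plod2 (Entrez gene 26432), the telopeptide lysyl hydroxylase, had 237, 218 and 225 TPM in the PDGF-DD libraries and 293, 317 and 309 TPM in the control libraries. Every PDGF-DD library lay below every control library. In CPM the level was 368 ± 12.4 CPM with PDGF-DD and 494 ± 7.52 CPM in control (SD, n = 3 each). The log2 fold change was -0.43 (SE 0.04, 95% interval -0.50 to -0.35, edgeR adjusted p = 1.84e-09), a change of -25.6% in level (95% interval -29.5% to -21.4%). Among the 2310 genes that fell, Plod2 ranked 728 by the size of its log2 fold change. Its exons share 346 bases with the opposite-strand transcript Gm38391 of the GENCODE M21 annotation, which was not analysed here.

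Plod3 (Entrez gene 26433), which encodes the lysyl hydroxylase that also glycosylates hydroxylysine, had 280.5, 281 and 282 TPM in the PDGF-DD libraries and 239, 255 and 253 TPM in the control libraries. The PDGF-DD libraries were all higher and nearly equal to each other. The log2 fold change was 0.18 (SE 0.04, 95% interval 0.11 to 0.26, edgeR adjusted p = 0.000236), a change of 13.6% in level (95% interval 7.88% to 19.7%). In the same annotation its exons share 529 bases with Znhit1 on the opposite strand and 9 bases with Mir702. Whether the counting used strand is unknown here, so some reads of Plod3 and Znhit1 could have been exchanged. Znhit1 stood at 110 ± 7.26 TPM with PDGF-DD and 115 ± 3.81 TPM in control and did not pass (log2 fold change -0.06, edgeR adjusted p = 0.463).

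Plod1 (Entrez gene 18822), the helical lysyl hydroxylase, had 103, 105 and 96.5 TPM in the PDGF-DD libraries and 95.6, 105 and 105 TPM in the control libraries. The groups overlapped over most of their range. Its log2 fold change of 0.01 did not pass, and the 95% interval ran from -0.08 to 0.10 (edgeR adjusted p = 0.903).

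**Figure D2:**
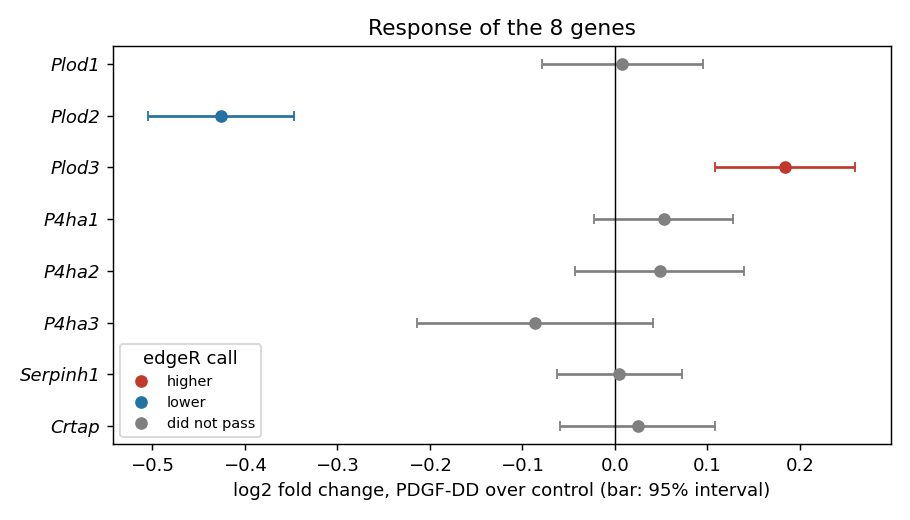
Log2 fold change of the 8 genes, PDGF-DD over control (horizontal axis), with 95% intervals from edgeR; red is higher, blue lower and grey did not pass. Plod2 at -0.43 and Plod3 at 0.18 are the 2 genes whose intervals do not include 0.

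These changes turned the order of the lysyl hydroxylase genes. Plod2 made up 38.2%, 36.1% and 37.2% of the summed lysyl hydroxylase TPM in the PDGF-DD libraries and 46.7%, 46.8% and 46.3% in the control libraries. Plod3 made up 45.2%, 46.5% and 46.8% with PDGF-DD and 38.1%, 37.7% and 38.0% in control. Plod1 had 16.6% ± 0.716 of the family with PDGF-DD and 15.5% ± 0.234 in control (SD, n = 3 each). None of these shares overlapped between the groups, and each gave p = 0.1 in the exact two-sided permutation test, the smallest value that 3 against 3 libraries allow (0.2 adjusted over 6 shares for each Plod gene). The shares are parts of the same sum and are not separate results. The share of Plod1 rose although its own TPM overlapped between the groups. Plod2 was more abundant than Plod3 in 3 of 3 control libraries and less abundant in 3 of 3 PDGF-DD libraries.

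The difference between paralogs was also tested within each library. Plod3 exceeded Plod2 by a log2 TPM difference of 0.31 ± 0.0642 with PDGF-DD, against -0.30 ± 0.0137 in control (SD, n = 3 each), a shift of 0.61. The log2 TPM difference of Plod2 over Plod1 was 1.16 ± 0.0945 with PDGF-DD and 1.59 ± 0.0285 in control, a shift of -0.43. That of Plod3 over Plod1 shifted by 0.18. For each of these 3 pairs no library of one group lay within the range of the other (exact permutation p = 0.1, 0.2 adjusted over 6 pairs). The pairs use the same TPM values as the shares and are not separate evidence. The summed lysyl hydroxylase level was 609 ± 9.86 TPM with PDGF-DD and 657 ± 25.7 TPM in control (SD, n = 3 each), also without overlap (exact permutation p = 0.1).

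**Figure D3:**
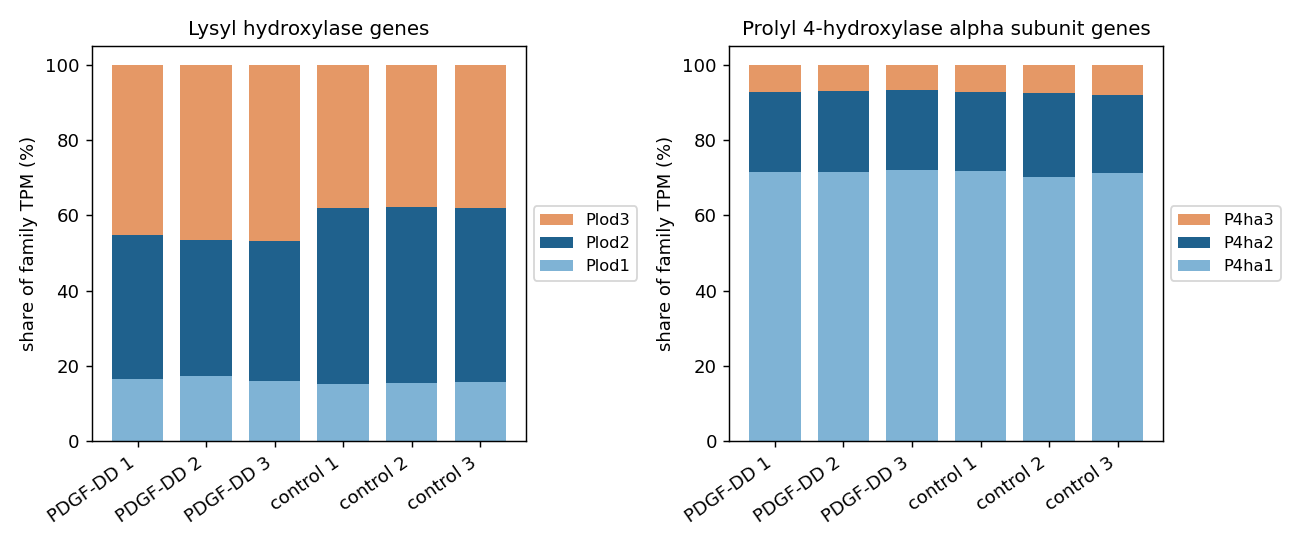
Share of each gene in the summed TPM of its family (vertical axis, percent), for the 3 lysyl hydroxylase genes (left) and the 3 prolyl 4-hydroxylase alpha subunit genes (right), 1 bar per library. The Plod2 segment takes 36.1% to 38.2% in PDGF-DD libraries and 46.3% to 46.8% in control, while P4ha1 takes 70.3% to 72.0% throughout.

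None of the prolyl 4-hydroxylase alpha subunit genes passed the test. P4ha1 (Entrez gene 18451), the main subunit here, had 271, 263 and 268 TPM in the PDGF-DD libraries and 255, 259 and 264 TPM in the control libraries. The groups met at 263 to 264 TPM, whereas in CPM the PDGF-DD libraries (474, 469 and 469) all lay above the control libraries (461, 445 and 454). Its log2 fold change was 0.05, with a 95% interval of -0.02 to 0.13 (edgeR adjusted p = 0.271).

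P4ha2 (Entrez gene 18452), the second catalytic subunit, had 79.6, 79.8 and 78.95 TPM in the PDGF-DD libraries and 74.2, 81.4 and 76.6 TPM in the control libraries. All PDGF-DD values lay inside the control range (log2 fold change 0.05, 95% interval -0.04 to 0.14, edgeR adjusted p = 0.421). P4ha3 (Entrez gene 320452), the least abundant of the 8 genes, had 27.9, 25.3 and 25.3 TPM in the PDGF-DD libraries and 26.1, 28.0 and 29.7 TPM in the control libraries. A single PDGF-DD library reached the control range, and the log2 fold change of -0.09 did not pass (95% interval -0.21 to 0.04, edgeR adjusted p = 0.299).

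The shares of the 3 subunits overlapped between the groups. P4ha1 held 71.7% ± 0.287 of the summed subunit TPM with PDGF-DD and 71.1% ± 0.765 in control (SD, n = 3 each, exact permutation p = 0.4). P4ha2 held 21.3% ± 0.351 with PDGF-DD and 21.2% ± 0.774 in control (exact permutation p = 0.9), and P4ha3 7.02% ± 0.306 with PDGF-DD and 7.65% ± 0.342 in control (exact permutation p = 0.2). After adjustment over the 6 shares these values were 0.48, 0.9 and 0.3. Within-library differences between the subunits shifted by log2 TPM values of -0.005 (P4ha2 over P4ha1), -0.14 (P4ha3 over P4ha1) and -0.13 (P4ha3 over P4ha2), with exact permutation p = 1, 0.2 and 0.2 (1, 0.24 and 0.24 adjusted over the 6 pairs). The summed level was 373 ± 5.65 TPM with PDGF-DD and 365 ± 7.84 TPM in control (SD, n = 3 each, exact permutation p = 0.3).

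Neither chaperone gene passed. Serpinh1 (Entrez gene 12406), which encodes HSP47, had 3339.5, 3304.8 and 3330.25 TPM in the PDGF-DD libraries and 3244, 3401 and 3362 TPM in the control libraries. The PDGF-DD values lay within the control range, and the log2 fold change of 0.01 had a 95% interval of -0.06 to 0.07 (edgeR adjusted p = 0.921). Crtap (Entrez gene 56693) had 257, 262 and 256 TPM in the PDGF-DD libraries and 238, 257 and 273 TPM in the control libraries, again with the PDGF-DD values inside the control range. Its log2 fold change was 0.02, with a 95% interval of -0.06 to 0.11 (edgeR adjusted p = 0.673). The intervals of these 6 genes set a bound on changes that the data could still hold, the widest being that of P4ha3, from -13.8% to 2.95% in level.

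Transcripts of collagen I, a substrate of these proteins, fell. Col1a1 and Col1a2, which encode the chains of collagen I, together stood at 11518 ± 144 TPM with PDGF-DD and 13161 ± 691 TPM in control (SD, n = 3 each). Col1a1 fell by 0.22 on the log2 scale (edgeR adjusted p = 7.05e-06), and Col1a2 by 0.13 (edgeR adjusted p = 0.00263). Per 100 TPM of these transcripts, Serpinh1 had 28.6, 28.7 and 29.3 TPM in the PDGF-DD libraries and 26.2, 25.0 and 24.9 TPM in the control libraries. Plod2 was the 1 gene of the 8 that was lower per collagen I transcript, at 1.97 ± 0.0727 with PDGF-DD and 2.33 ± 0.0451 in control. The 7 other genes had higher values in every PDGF-DD library than in any control library, with P4ha3 the closest call (lowest PDGF-DD value 0.2200, highest control value 0.2195). They ran from P4ha3 (0.227 ± 0.0106 with PDGF-DD and 0.212 ± 0.00685 in control) to Serpinh1 (28.9 ± 0.352 with PDGF-DD and 25.4 ± 0.754 in control).

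These ratios share a denominator that itself differed between the groups: among all 13270 tested genes 49.9% were higher and 8.0% lower per collagen I transcript without overlap. The summed level of the 8 genes per 100 TPM of collagen I was 39.6 ± 0.400 with PDGF-DD and 35.1 ± 0.895 in control (SD, n = 3 each, exact permutation p = 0.1). Without Serpinh1 the sum was 10.8 ± 0.0597 with PDGF-DD and 9.71 ± 0.154 in control (exact permutation p = 0.1).

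**Figure D4:**
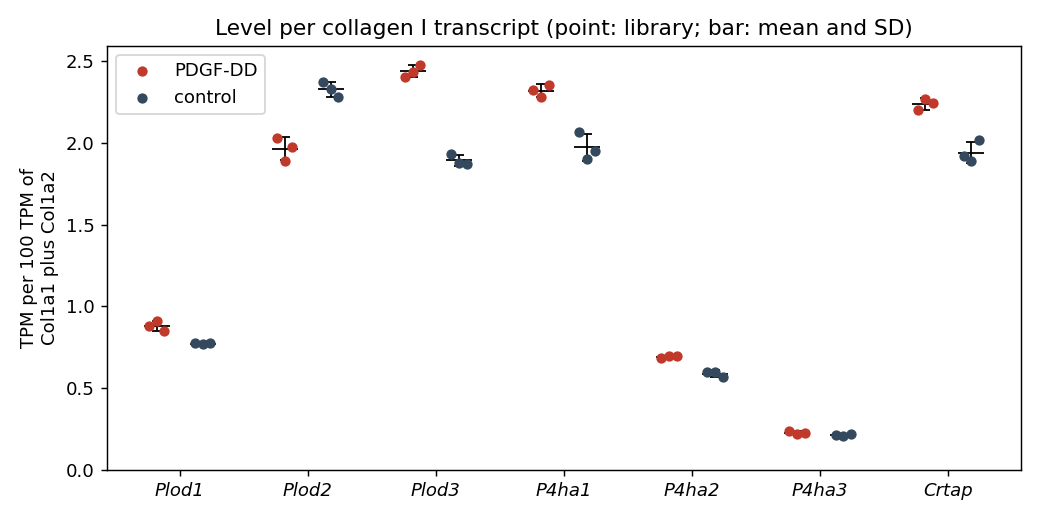
Level per 100 TPM of Col1a1 plus Col1a2 (vertical axis) of 7 of the genes, Serpinh1 being far higher and not drawn; points are libraries, bars the mean and SD over 3 libraries. Of the 7, Plod2 is the gene that is lower in the PDGF-DD libraries, at 1.89 to 2.03, than in control, at 2.28 to 2.37.

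Partners that modify and fold collagen beside these genes moved both ways. Among 15 such genes tested, 3 rose and 3 fell, and 9 did not pass the test (19.1% higher and 17.4% lower among all tested genes), with a median log2 fold change of 0.03. In 8 of the 12 alternatives that give this count, 2 fell. Over the same alternatives the number that rose ran from 1 to 4. Fkbp14, among those that rose, lost its call in 7 of 15 alternative fits. P4hb, the disulfide isomerase subunit of prolyl 4-hydroxylase, was at 1239 ± 16.1 TPM with PDGF-DD and 1128 ± 46.4 TPM in control and rose (log2 fold change 0.15, edgeR adjusted p = 0.00141). No alpha subunit gene passed. P3h1, the partner of CRTAP, rose by 0.11 on the log2 scale (edgeR adjusted p = 0.0179), a call lost in 5 of 15 alternative fits, among them the one without control replicate 2. Ppib, the third protein of that complex, did not pass (0.08, edgeR adjusted p = 0.268). P3h2, another prolyl 3-hydroxylase, fell by 0.60 on the log2 scale, and Tmem38b, an endoplasmic reticulum cation channel whose loss in humans causes brittle bones, fell by 0.48. Sparc, the abundant collagen-binding matrix protein, stood at 8294 TPM with PDGF-DD and 8818 TPM in control and fell by 0.08 (edgeR adjusted p = 0.0473). That call was lost in 11 of 15 alternative fits, among them those without control replicate 2 or 3 or any single PDGF-DD library (adjusted p of up to 0.205). The difference in response between P4hb and the alpha subunits, and between P3h1 and Crtap, was not tested.

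Of 10 tested fibrillar collagen chain genes, 1 rose and 6 fell, with a median log2 fold change of -0.18. Among all tested genes 19.1% were higher and 17.4% lower, the background for each list in this paragraph. Col3a1 fell by 0.29 and Col11a1 by 0.38 on the log2 scale, Col1a1 by 0.22 and Col1a2 by 0.13, and Col5a3, a minor chain of collagen V, rose by a log2 fold change of 0.72. Of 7 tested propeptidases and enhancers, which trim procollagen after secretion, 3 rose and 2 fell. Tll1 rose by 0.92 on the log2 scale, Adamts14 by 0.59 and Pcolce2 by 0.33, Adamts2 fell by 0.29 and Pcolce by 0.12, and the C-propeptidase gene Bmp1 did not pass (-0.05). Without PDGF-DD replicate 1 or 3 the call of Pcolce was lost and the number that fell was 1. Of 15 genes of procollagen export, 4 rose and 0 fell by edgeR, at a median log2 fold change of 0.08 (7 rose without control replicate 1). At an unadjusted edgeR p under 0.05, and by DESeq2, 0 fell as well. Sec23b, Mia2, Kdelr2 and Sec13, which serve the coat of export vesicles, cargo loading and retrieval of chaperones, rose by log2 fold changes of 0.25, 0.17, 0.15 and 0.13, and Kdelr3 did not pass (0.08).

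The general chaperones of the endoplasmic reticulum that were called all rose. Of 19 tested genes 12 rose and 0 fell by edgeR, with a median log2 fold change of 0.14. Among all tested genes 19.1% were higher and 17.4% lower, and among genes of at least 20 CPM 46.6% were called in either direction. None was lower at an unadjusted edgeR p under 0.05 or by DESeq2. In the alternatives that give this count, the number that rose ran from 8 (without control replicate 3) to 14 (total count scaling). Hspa5 (BiP) rose by a log2 fold change of 0.24, Hyou1 by 0.34, Creld2 by 0.29 and Manf by 0.24, while the lectin chaperone Calr did not pass (0.09, edgeR adjusted p = 0.0501). Of 16 genes of HSF1, the heat shock transcription factor, and its targets, 7 rose and 2 fell, with a median of 0.13. Hspd1, the mitochondrial chaperonin gene, rose by 0.52 on the log2 scale, Hspa8 by 0.41, Hsp90aa1 by 0.29 and Hsp90ab1 by 0.19. The genes that fell, Hspa1a and Hspa1b, are near-identical copies whose reads may be split between them, and they were named after their values were seen. Without control replicate 1, or without any single PDGF-DD library, the call of Hspa1b was lost and the number of genes in this list that fell was 1. Serpinh1, a heat shock protein gene by its known regulation, had a log2 fold change of 0.01 beside these values.

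Of 13 genes that supply the hydroxylases with their cofactors, 7 rose, 1 fell and 5 did not pass, with a median log2 fold change of 0.13. Among all tested genes 19.1% were higher and 17.4% lower, and among genes of at least 20 CPM 46.6% were called in either direction. The number of cofactor genes that rose ran from 6 to 7 over the alternatives that give it. Among those that rose, Slc23a2 lost its call in 10 of 15 alternative fits and Got2 in 3. The iron importer Tfrc rose by a log2 fold change of 0.64, the glucose and dehydroascorbate transporter Slc2a1 by 0.35 and Gsto1, which can reduce dehydroascorbate, by 0.33. Idh1, which makes alpha-ketoglutarate in the cytosol, stood at 42.1 ± 3.59 TPM with PDGF-DD and 61.5 ± 1.10 TPM in control and fell by 0.54. Without PDGF-DD replicate 2 the number of these genes that fell was 2. The iron stores Ftl1 and Fth1 did not pass (-0.05 and -0.10). Of 20 genes of the hypoxia-inducible factor (HIF) pathway and its targets, 4 rose and 7 fell, with a median of -0.04. Over the alternatives that give these counts, 3 to 5 rose and 6 to 7 fell. Plod2, P4ha1 and P4ha2 are known HIF targets and are not in that list. Epas1, which encodes HIF-2α, fell by 0.45 on the log2 scale and Ndrg1 by 0.52, while the glycolytic genes Ldha (0.26) and Pgk1 (0.23) rose.

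**Figure D5:**
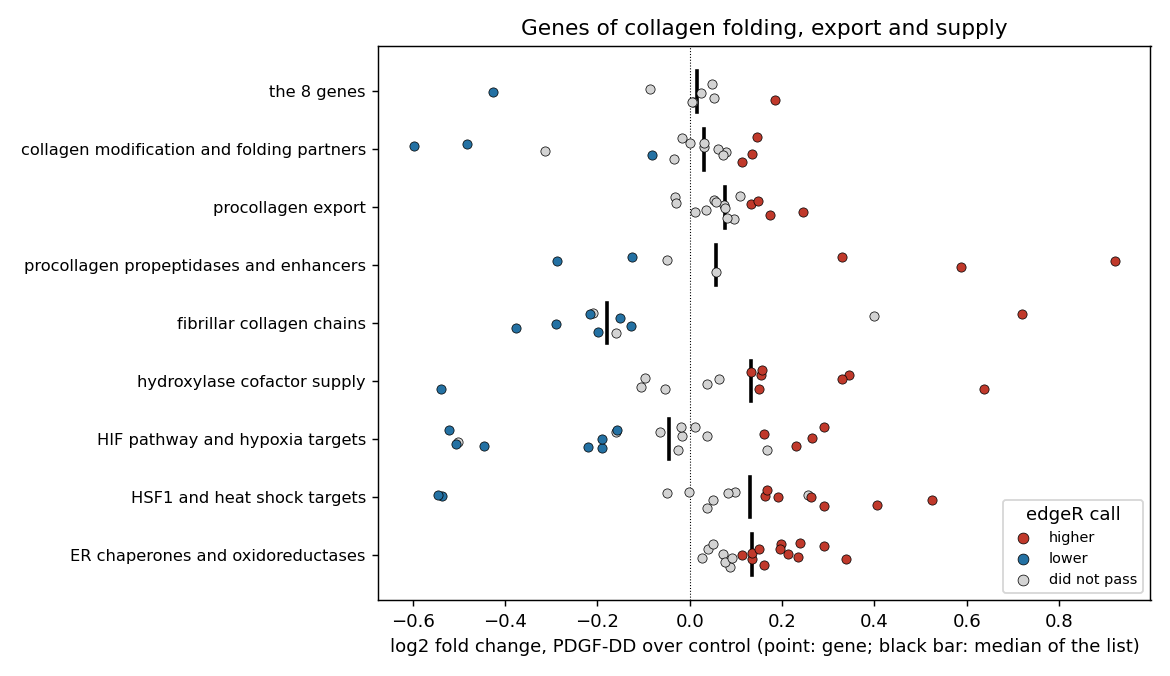
Log2 fold change, PDGF-DD over control (horizontal axis), of each tested gene in the set of 8 (top row) and in 8 lists of related genes; points are genes, coloured by the edgeR call, and black bars mark list medians. Fibrillar collagen chains have a median of -0.18 and endoplasmic reticulum chaperones of 0.14, with the set of 8 at 0.02.

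The genes whose centred log2 CPM over the 6 libraries was nearest to that of each changed member were picked among 7167 other genes of at least 20 CPM. For Plod2 these were Garre1 (distance 0.053, log2 fold change -0.43) and Gucy1b1 (distance 0.065, -0.46), which encodes part of the soluble guanylate cyclase that senses nitric oxide. For Plod3 they were Cars (distance 0.013, log2 fold change 0.18), the cysteinyl-tRNA synthetase gene, and the cytosolic chaperone gene Hsp90ab1 (distance 0.020, 0.19).

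Markers of other cell types were present and some moved with the treatment. Smooth muscle and pericyte markers summed to 70.6 to 73.3 TPM with PDGF-DD and 90.7 to 102 TPM in control (1 of 6 tested rose and 3 fell). Among them Myh11 was at 4.57 ± 0.804 TPM with PDGF-DD and 9.53 ± 0.771 TPM in control (log2 fold change -1.02, SD, n = 3 each, edgeR adjusted p = 3.79e-10). Notch3 was at 24.5 ± 0.717 TPM with PDGF-DD and 48.3 ± 2.83 TPM in control (-0.97, edgeR adjusted p = 4.44e-15), and Cspg4 rose (0.24, edgeR adjusted p = 7.06e-05). The changes of Myh11 and Notch3 were larger than those of Plod2 and Plod3. The call of Rgs5, which also fell, was lost in 5 of 15 alternative fits. Of the 8 cardiomyocyte markers, 3 were under 1 TPM in all libraries. Among these Myh7, not tested, was listed at 0 TPM in the PDGF-DD libraries and at 0.03, 0.05 and 0 TPM in the control libraries. Cardiomyocyte markers summed to 224 to 253 TPM with PDGF-DD and 313 to 338 TPM in control (3 of 6 tested fell). Most of that sum was Tnnt2, at 228 ± 15.2 TPM with PDGF-DD and 314 ± 11.2 TPM in control, levels like those of Plod2 (log2 fold change -0.45, edgeR adjusted p = 1.34e-07). Among the other cardiomyocyte markers the highest value in any library was 3.79 TPM (Nppa, control replicate 2). Ryr2, which also fell, was at 0.06 to 0.12 TPM, and its call was lost in 10 of 12 alternative fits. Macrophage and leukocyte markers summed to 362 to 391 TPM with PDGF-DD and 422 to 445 TPM in control (1 of 8 fell), most of it Lyz2 at 272 ± 6.22 TPM with PDGF-DD and 315 ± 13.5 TPM in control. Endothelial markers summed to 163 to 164 TPM with PDGF-DD and 162 to 179 TPM in control (0 of 7 called by edgeR or DESeq2, 1 lower at an unadjusted edgeR p under 0.05), and epicardial and mesothelial markers to 54.1 to 56.6 TPM with PDGF-DD and 58.9 to 65.6 TPM in control (1 of 5 fell). Of the 10 fibroblast markers 6 fell and 1 rose. No marker was at 0 counts in all 6 libraries. The part of these markers in the change of Plod2 or Plod3 was not tested. In bulk samples fewer cells of a type, less RNA per cell and a lower level of the marker in the fibroblasts themselves cannot be told apart.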

How the data were processed

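RNA of cardiac fibroblasts was sequenced in 3 PDGF-DD and 3 control libraries after capture on oligo(dT) beads and random-hexamer priming, per the labels' protocols. The submitters' processing notes name HISAT2 2.0.4, Bowtie2 2.2.5, RSEM 1.2.12, DESeq2 1.4.5 and mm9, without roles. The gene annotation and use of strand are unknown (not given in the sources used here). The deposited estimated counts are not normalized, and 31.9% to 32.7% per library are fractional (by more than 0.001). FPKM values were scaled by the authors to transcript length and depth, and the deposited TPM values sum to the same total in each library, per the file headers and values. TPM is used for levels, shares and ratios.

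Estimated counts were rounded, filtered with filterByExpr (13270 genes left), scaled with TMM factors (0.9947 to 1.005) and compared with edgeR 4.0.16 (quasi-likelihood F test, robust, two-sided, R 4.3.3), with Benjamini-Hochberg adjustment over all tested genes and calls at an adjusted p under 0.05. The SE is the size of the log2 fold change divided by the square root of F. Shares, ratios and paralog differences were tested with exact two-sided permutation tests over libraries (scipy 1.17.1). The fit was also run on simulated counts drawn with the dispersions fitted here. Such a run cannot check those dispersions or whether the libraries are independent. P4ha3 had 553 to 628 counts per library, with an SD of 26.4 counts in the PDGF-DD group and 22.6 counts in control. The part of counting error in that spread was not tested. Alternatives were RLE, upper-quartile and total count scaling, no filter, DESeq2 1.42.0, limma 3.58.1 on log2(TPM + 1) or log2(TPM + 0.1), a replicate term, FPKM or unscaled counts for shares, and leaving out each library.

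The members and gene lists were chosen with earlier results of these data known. Named genes are all 8 members, up to 4 called genes of each list with the smallest p and its 2 most abundant genes, and the 2 genes nearest to each called member; others, and the markers given singly, were named after their values were seen. Ppib and Znhit1, also outside this rule, are given as the partner of Crtap and the overlapping neighbour of Plod3. All list symbols were matched to the files, older ones through a RefSeq gene table.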

Additional observations from a re-analysis of the deposited data

How the results depend on the processing

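The call of Plod2 as lower and of Plod3 as higher held in all 15 alternative fits, with log2 fold changes between -0.45 and -0.40 and between 0.16 and 0.20 and adjusted p-values of up to 0.000325 and 0.0142. The 6 other genes passed in none of them. Directions too small to call turned for Plod1 under upper-quartile scaling (-0.012), in limma on log2(TPM + 1) with and without a filter and on log2(TPM + 0.1) (-0.003 in each), and ran between -0.019 and 0.055 when 1 library was left out. Serpinh1 turned under upper-quartile scaling (-0.015) and in the same 3 limma fits (-0.004 in each), and ran between -0.001 and 0.017 without 1 library, Crtap between -0.002 and 0.062. The shift of the P4ha2 share ran between -0.178 and 0.531 percentage points and that of P4ha2 over P4ha1 between -0.0244 and 0.0336 log2 TPM. The cause was not tested.

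Leaving out 1 library moved the genes of procollagen export that rose to between 4 and 7, the propeptidases that fell to between 1 and 2, the cofactor genes that fell to between 1 and 2 and the heat shock genes that fell to between 1 and 2. It also moved the endoplasmic reticulum chaperones that rose to between 8 and 13. Under upper-quartile scaling 2 cofactor genes fell. The folding partners that fell numbered 2 with total count scaling, without the low-count filter, with the replicate block and without control replicate 2 or 3 or any single PDGF-DD library. Of the other genes named from the lists, Pcolce lost its call in 3 of 15 fits and Col1a2 in 1 (limma without a filter, adjusted p = 0.058). Replicate numbers of the titles did not pair the libraries: deviations of same-numbered libraries from their group means correlated at -0.066, -0.091 and -0.026, and no library correlated best with its own number. With these numbers as a replicate block 2269 genes were higher and 2076 lower, the same members were called (Plod2 -0.43, Plod3 0.18), 1 folding partner rose and 1 propeptidase fell. With 3 libraries a group, the permutation tests cannot fall below 0.1, or 0.2 without 1 library.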
